A study of Mus musculus with 4 samples.

Results

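Transcription factor genes of the ETS family, 10 in all, were followed in hindlimb bud cells of mouse embryos at embryonic day 11.5, namely Etv1, Etv4 and Etv5 (the PEA3 group), Ets1 and Ets2, Gabpa, the ternary complex factors Elk1, Elk3 and Elk4, and Etv6. These 10 genes were selected by symbol from the 25239 in the count table, as ETS factors that could bind the ZRS, the long-range limb enhancer of Shh. RNA was sequenced from 2 libraries of anterior cells positive for mCherry and 2 libraries of central cells negative for it. All embryos were of the FVB strain with a genotype labelled wild-type, and all carried the same reporter at the H11 locus, in which a human ZRS with the 404G>A base change, joined to the hsp68 promoter, drives the red fluorescent protein mCherry. Both groups therefore share the transgene and differ in the dissected domain and in reporter fluorescence, so domain and reporter activity cannot be told apart. The labels do not say how many embryos were pooled or whether libraries with the same number share embryos, so the p-values measure the spread between these libraries, which may be technical.

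ETS factors share a DNA-binding domain that recognises a GGAA core, and differ in how signals reach them. PEA3 genes are transcribed in response to fibroblast growth factor (FGF) signalling through the kinase ERK, and the repressor Capicua holds them down until ERK relieves it. Ets1 and Ets2 are activated by ERK phosphorylation, Gabpa works with a Gabpb partner, ternary complex factors act with serum response factor (SRF) at immediate early genes, and Etv6 is a repressor. In the limb bud the ZRS holds several ETS sites: Ets1 and Gabpa have been linked to the activity of the enhancer, and Etv4 and Etv5 to keeping Shh out of the anterior bud.

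Library totals ranged from 30080925 to 33257383 counts. Values below are CPM, counts scaled to library size with TMM factors, and a gene is called when its p-value from the quasi-likelihood F test of edgeR, adjusted by the Benjamini-Hochberg method over all 14610 tested genes, is under 0.05. All 10 limb mesenchyme markers listed had more than 3 counts in every group, but most differed between the groups. Msx1, Msx2, Lhx2, Lhx9, Prrx2 and Twist1 were called higher in anterior cells (log2 fold changes of 3.26, 2.80, 2.65, 2.60, 1.91 and 0.83), Pdgfra was called lower (-1.17), and Prrx1, Pitx1 and Tbx4 were not called. Markers of other cell types differed as well. Summed CPM of 8 erythroid markers was 3294 and 8400 in the anterior libraries against 5.98 and 9.48 in the central ones, 7 myogenic markers summed to 4.17 and 2.35 against 142.9 and 142.2, and 8 macrophage markers to 24.5 and 19.5 against 8.05 and 7.75. In RNA from whole populations, fewer cells of a type and less RNA per cell cannot be told apart.

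The 10 ETS genes did not move as a block. Etv4, Etv5, Etv1 and Ets2 rose in anterior cells, Ets1 fell, and Gabpa, Elk1, Elk3, Elk4 and Etv6 were not called. That is 5 of 10 called, where 22.9% of all tested genes were called. In the upward direction it is 4 of 10 against a background of 10.7%, and in the downward direction 1 of 10 against 12.3%. The 10 genes were chosen with earlier results of these data known, so these counts are not independent evidence. The median log2 fold change of the 10 genes was 0.28, beside -0.00866 over all tested genes. The anterior and central values did not overlap for 8 of the 10, which was also true of 63.5% of all tested genes. All 10 passed the filter on low counts. The share of all tested genes called was 21.4% with library size alone, 22.0% with upper-quartile factors, 22.2% with the DESeq2 Wald test, 22.7% with limma-voom, 20.7% without a filter, 24.3% at a mean count of at least 50, and 24.5% with the replicate block or halved counts. It was 16.6%, 13.1%, 21.2% and 24.6% without anterior replicate 1, anterior replicate 2, central replicate 1 and central replicate 2, and 11.6% at a threshold of 0.01.

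**Figure D1:**
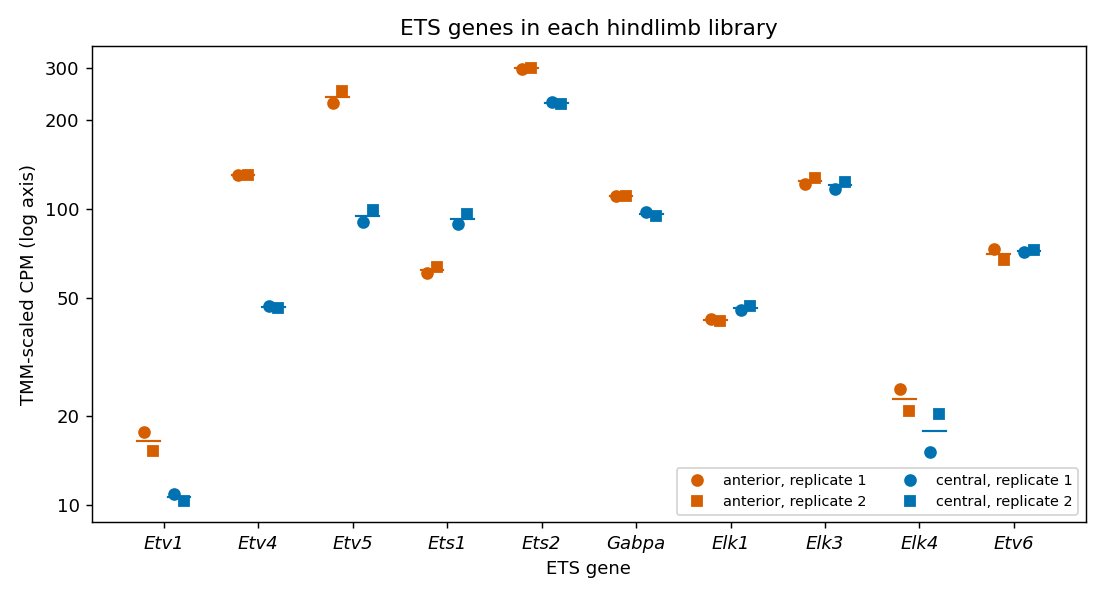
TMM-scaled CPM (log axis) of the 10 ETS genes in each library, orange for anterior and blue for central, circles for replicate 1 and squares for replicate 2, with a line at each group mean. Etv4 and Etv5 show the widest gaps, with anterior values of 130 to 249 against 46.2 to 99.2, and Ets1 is the one gene of the 10 called lower in anterior cells.

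Etv4 had the largest difference of the 10. It had 4357 and 3805 counts in anterior against 1448 and 1494 in central libraries, or 131 and 130 CPM against 47.0 and 46.2. Replicates lay within 1 CPM of each other and the groups were far apart. The means were 130 ± 0.66 and 46.6 ± 0.61 CPM (SD, n = 2), 2.79-fold higher in anterior cells, with a log2 fold change of 1.48 ± 0.07 (SE). The adjusted p-value from edgeR was 3.72e-06. Etv4 lies on chromosome 11 (GRCm38, 101769742 to 101785371, minus strand).

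Etv5, its close paralogue, measured 227 and 249 CPM in anterior against 90.5 and 99.2 in central libraries. The groups did not overlap, and in each group the second library was the higher. The fold was 2.51, with a log2 fold change of 1.33 ± 0.08 (SE). The adjusted p-value from edgeR was 9.13e-06. Per kilobase of annotated exon, the ratio of Etv5 to Etv4 was 1.32 and 1.46 in anterior against 1.46 and 1.63 in central libraries. The higher anterior and the lower central ratio were alike at this rounding, so the balance of the paralogues was not told apart between the populations.

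Etv1, the third gene of the PEA3 group, had fewer reads, with 588 and 446 counts in anterior against 336 and 335 in central libraries. This corresponds to 17.6 and 15.2 CPM against 10.9 and 10.3, without overlap. Its rise was smaller than that of its relatives and less certain, at 1.55-fold (log2 fold change 0.63 ± 0.15, SE, with an adjusted p-value of 0.0177 from edgeR). The call was lost without anterior replicate 1, where the edgeR adjusted p-value was 0.108 at a log2 fold change of 0.52.

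The promoter sequences of the PEA3 genes are shown because these genes were called higher together and Capicua is their known repressor. RefSeq (GRCm38.p6) start windows matched 8 of the 10 genes with 12 starts, Etv4 and Ets1 having no entry. The windows shown are the 250 bases before a start in which no annotated GENCODE exon of the gene lies. Capitals mark the ETS core GGAA and the Capicua core TGAATG, each searched on both strands, and no match of one overlapped a match of the other.
Etv5, chr16:22438369-22438618, minus strand, inside the gene: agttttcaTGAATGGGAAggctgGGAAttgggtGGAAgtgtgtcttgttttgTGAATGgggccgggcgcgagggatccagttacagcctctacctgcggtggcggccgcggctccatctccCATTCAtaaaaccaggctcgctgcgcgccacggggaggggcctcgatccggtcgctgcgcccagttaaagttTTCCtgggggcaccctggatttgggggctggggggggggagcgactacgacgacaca
Etv1, chr12:38779832-38780081, plus strand, inside the gene: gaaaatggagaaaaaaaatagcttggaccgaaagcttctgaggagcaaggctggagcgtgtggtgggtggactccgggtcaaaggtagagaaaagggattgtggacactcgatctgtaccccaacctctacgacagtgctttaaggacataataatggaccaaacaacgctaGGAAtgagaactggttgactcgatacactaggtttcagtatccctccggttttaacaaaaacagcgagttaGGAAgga
The Etv5 window held 3 Capicua cores, beginning 242, 198 and 129 bases before the start, and 4 ETS cores. Of all 32851 promoter windows of this length, 10.9% held at least 1 Capicua core and 0.131% held 3 or more. The cut of 3 equals the count in this Etv5 window, the highest of the 12, so the 0.131% is no test of rarity. The other 11 windows of the 10 ETS genes, including the Etv1 window and the upstream start of Etv5, held none. Capicua cores were not particular to Etv5. They were also in 1 of 20 windows of the other ETS family genes (Etv2). Of 9 windows of the FGF feedback inhibitors described below, 3 held the core (Dusp5, Dusp6 and Spred3), beside 10.9% of all windows. The ETS core is common, being present in 93.5% of all windows, and the Etv1 window held 2. The longer ETS form CCGGAA, found in 12.03% of all windows, was in those of Gabpa and Elk4. The bases after the Etv5 start shown were in no GENCODE M21 transcript of the gene. Those after its upstream start were found in a transcript, and that upstream window held 0 ETS cores. These matches describe letters in the windows, and which Etv5 start was used in these cells was not measured.

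Ets2 rose by a small amount. It measured 297 and 300 CPM in anterior against 229 and 226 in central libraries. The replicates differed by a few CPM and the groups did not overlap. The fold was 1.31, with a log2 fold change of 0.39 ± 0.06 (SE). The adjusted p-value from edgeR was 0.00201.

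Ets1, on chromosome 9 (GRCm38, 32636221 to 32757820, plus strand), moved the other way. It had 2030 and 1863 counts in anterior against 2736 and 3103 in central libraries, or 60.9 and 63.5 CPM against 88.8 and 95.9. Each anterior value was below each central value. Ets1 was 1.49-fold lower in anterior cells (log2 fold change -0.57 ± 0.08, SE, with an adjusted p-value of 0.00119 from edgeR). The ratio of Ets2 to Ets1 per kilobase of exon was 7.17 and 6.93 in anterior against 3.78 and 3.46 in central libraries. An exact two-sided permutation test of that ratio gave p = 0.333, the smallest that 2 libraries against 2 allow. That test could therefore not call a difference, and it gave the same value for the ratio of Etv5 to Etv4.

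Ets1 is also expressed in blood vessels. Endothelial markers (Pecam1, Cdh5, Kdr and 7 others) summed to 12.1 and 19.2 CPM in anterior against 39.9 and 50.3 in central libraries. Of these 10 markers, 7 were called lower, 0 higher, and 1 (Cldn5) had no more than 3 counts in both anterior libraries. Of all tested genes, 12.3% were called lower. The part of the endothelial markers in the fall of Ets1 was not tested.

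Gabpa, the DNA-binding subunit of the GA-binding protein, measured 110.4 and 110.2 CPM in anterior against 97.8 and 94.3 in central libraries. The groups did not overlap, yet the difference of 0.20 ± 0.07 (SE) on the log2 scale was not called (adjusted p-value by edgeR 0.0658). Without central replicate 1 it passed, at 0.0483. An antisense neighbour, Atp5j, shares 397 bases with Gabpa exons, which is 6.98% of their length, and whether counting used strand is not given in the sources used here. The partners of Gabpa, Gabpb1 and Gabpb2, the activating subunits, had log2 fold changes of -0.15 and 0.07. Neither was called by edgeR, the DESeq2 Wald test or limma-voom, and 1 of the 2 had an unadjusted p-value under 0.05 in edgeR. Of all tested genes, edgeR called 22.9%.

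Of the ternary complex factors, which assemble on DNA with SRF, 0 of 3 were called, beside 22.9% of all tested genes. Elk3 measured 122 and 127 CPM in anterior against 117 and 123 in central libraries, with overlap (log2 fold change 0.05 ± 0.07, SE, with an adjusted p-value of 0.656 from edgeR). The antisense gene Cdk17 shares 316 bases with Elk3 exons, 6.95% of their length, so the limit given for Gabpa holds for Elk3 too. Elk1 measured 42.6 and 41.7 against 45.6 and 47.0, a log2 fold change of -0.14 ± 0.08 (SE) that was not called (adjusted p-value by edgeR 0.286). Elk4 was the noisiest of the 10, at 24.7 and 20.7 against 15.1 and 20.3 CPM. Its lowest anterior value lay just above its highest central one. Its log2 fold change of 0.36 ± 0.16 (SE) was not called (adjusted p-value by edgeR 0.154), but without central replicate 2 it was 0.59 and called (edgeR adjusted p-value 0.0147). Etv6, the repressor, had overlapping values of 73.5 and 67.3 against 71.4 and 72.8 CPM and an edgeR adjusted p-value of 0.807.

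**Figure D2:**
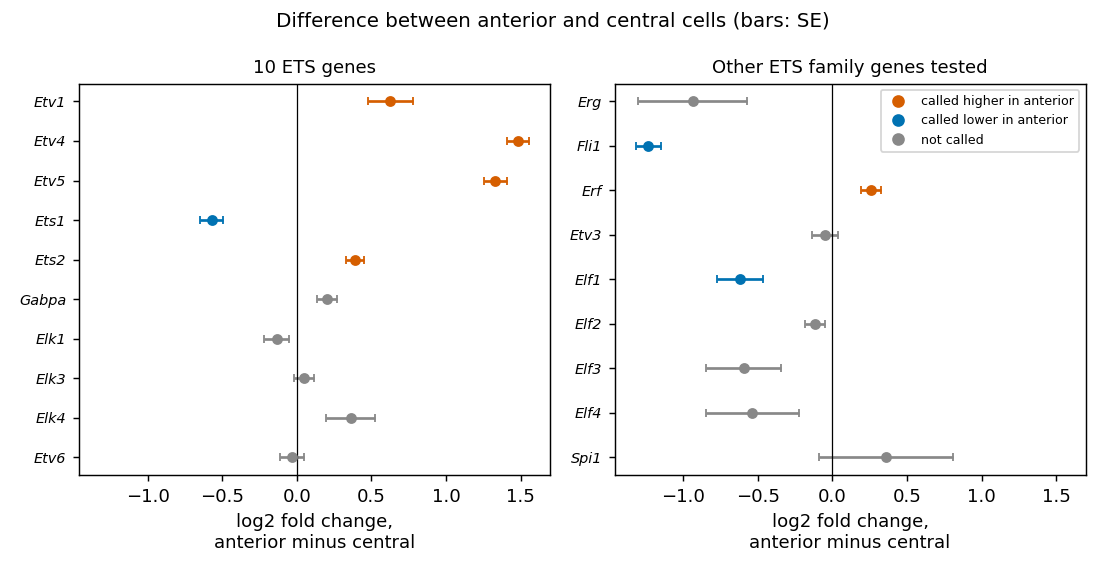
Log2 fold change (anterior minus central, bars are SE) of the 10 ETS genes on the left and of the other 9 ETS family genes tested on the right, orange for called higher in anterior cells, blue for called lower and grey for not called. Etv4 (1.48) and Etv5 (1.33) lie farthest to the right, and Fli1 (-1.24) farthest to the left.

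Genes can be compared with each other only per length, so CPM was divided by the summed length of annotated exons. On this scale anterior cells had Etv5 first, at 58.1 ± 3.8 CPM per kilobase (SD, n = 2), followed by Ets2 at 51.7 ± 0.34, Etv4 at 41.9 ± 0.21, Elk3 at 27.3 ± 0.84 and Gabpa at 19.4 ± 0.024. Central cells had Ets2 first, at 39.4 ± 0.37, followed by Elk3 at 26.4 ± 0.98, Etv5 at 23.1 ± 1.5, Gabpa at 16.9 ± 0.43 and Etv4 at 15.0 ± 0.20. Etv4 thus stood above Elk3 and Gabpa in anterior cells and below both in central cells, in both libraries of each. The lower part of the order held Etv6, Elk1 and Ets1 between 7.18 and 12.3 CPM per kilobase in all libraries, then Elk4 between 2.36 and 3.86, and Etv1 last at 0.78 to 1.33. Neighbours in the order did not overlap in either population on this scale. Some of it depends on the length used. With the longest coding transcript in place of all exons, Ets2 (76.8) stood above Etv5 (60.0) in anterior cells. Etv4 and Gabpa then overlapped in central cells (means of 19.5 and 19.3). Ets1, Elk1 and Etv6 could not be ordered in anterior cells (12.2, 11.9 and 12.3).

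As a share of the summed level of the 10 genes per kilobase, the PEA3 group made up 43.4% and 44.6% in the anterior and 24.7% and 25.2% in the central libraries, a mean of 44.0% ± 0.82 against 25.0% ± 0.35 (SD, n = 2). Almost all of it was Etv4 and Etv5. Ets1 held 3.19% ± 0.047 of the sum in anterior and 6.99% ± 0.24 in central cells. The ternary complex factors held 16.8% ± 0.14 and 24.2% ± 0.65, and Gabpa held 8.43% ± 0.14 and 10.8% ± 0.48. Shares add up to a whole, so the lower share of Gabpa accompanies a CPM that was not lower. Ets2 held 22.5% ± 0.20 in anterior and 25.3% ± 0.72 in central cells, although its CPM was called higher in anterior cells. The shares also depend on the length used. With the longest coding transcript, Ets1 held 4.27% ± 0.075 in anterior and 9.13% ± 0.33 in central cells. No p-value is given for the shares, because 2 libraries against 2 cannot go below 0.333 in an exact permutation test.

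**Figure D3:**
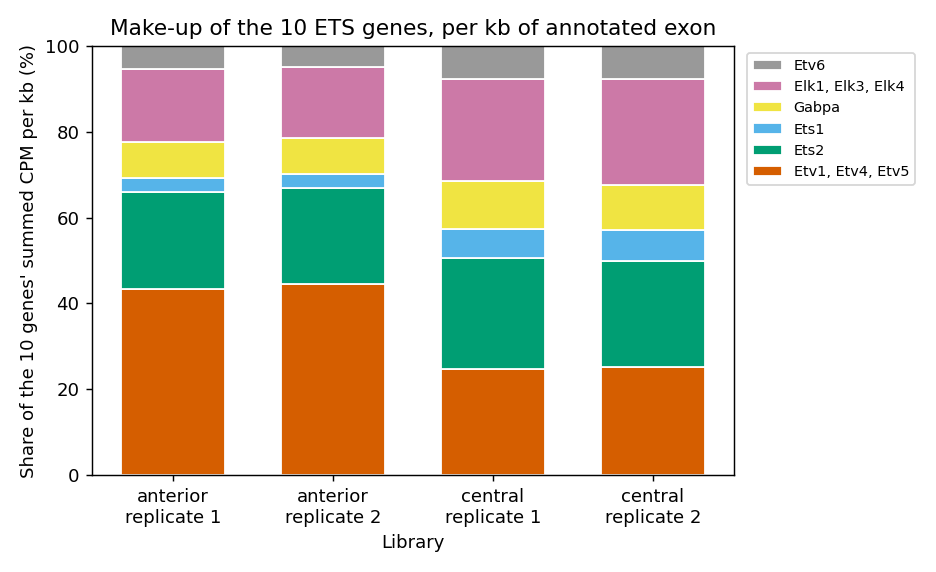
Share (%) of each ETS group in the summed CPM per kilobase of the 10 genes, one stacked bar per library from 0 to 100%. The PEA3 group (orange) takes 43.4% and 44.6% of the anterior bars and 24.7% and 25.2% of the central bars.

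The rest of the ETS family, 17 further genes, was sparser. Counts were too low to test 8 of them, and Fev was listed at 0 in every library. Of the 9 tested, 1 rose and 2 fell, beside 10.7% and 12.3% of all tested genes. Fli1, an endothelial and mesenchymal factor whose gene lies near Ets1 on chromosome 9 (GRCm38, 32422204 to 32542861, minus strand), measured 37.2 and 34.6 CPM in anterior against 83.4 and 85.8 in central libraries, 2.35-fold lower in anterior cells (log2 fold change -1.24 ± 0.08, SE, with an adjusted p-value of 1.96e-05 from edgeR). Its relative Erg, a vascular factor, had 154 and 88 counts against 303 and 155 and was not called (adjusted p-value by edgeR 0.103). It was called lower without a filter, with the replicate block, without anterior replicate 1 and without central replicate 2. The endothelial marker sums given for Ets1 apply here too, and their part in the Fli1 difference was not tested. Elf1, known from blood cells and vessels, fell 1.54-fold (edgeR adjusted p-value 0.0205), and the ETS repressor Erf rose by 0.26 on the log2 scale (adjusted p-value 0.0249, edgeR). Without anterior replicate 2, Fli1 was the single gene of these 17 still called. Elf1 was also lost without central replicate 1 and Erf without anterior replicate 1. Of the whole family, 19 of 27 genes were tested, 5 rose and 3 fell, which is 42.1% called beside 22.9% of all tested genes. The 10 genes above supply 5 of these 8 calls.

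FGF feedback inhibitors, which ERK signalling induces and which damp the pathway, were called higher in 8 of 11 genes and lower in 1, beside backgrounds of 10.7% and 12.3%. Their median log2 fold change was 0.45. Spry1 measured 128 and 163 CPM in anterior against 35.9 and 35.7 in central libraries, a log2 fold change of 2.02 ± 0.11 (SE). Spry4 was close to it, at 2.01 ± 0.12. Dusp6, the phosphatase of ERK, measured 536 and 656 against 212 and 230 CPM (log2 fold change 1.43 ± 0.10, SE, with an adjusted p-value of 2.33e-05 from edgeR). Il17rd and Dusp5 rose by 1.07 and 0.86 on the log2 scale. Etv4 and Etv5, at 1.48 and 1.33, fell within the range of these genes. The exception, named after its values were seen, was Flrt3, which promotes FGF signalling and fell by 0.69 on the log2 scale. The feedback list was drawn up with an earlier result on these libraries known, so its direction is not independent evidence.

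FGF ligands went in both directions. Fgf10, the ligand made by limb mesenchyme, measured 70.9 and 63.8 CPM in anterior against 28.7 and 24.5 in central libraries (log2 fold change 1.34 ± 0.11, SE, with an adjusted p-value of 5.17e-05 from edgeR). Fgf8, Fgf9, Fgf18 and Fgf17 fell, giving 5 of 6 tested ligands called, beside 22.9% of all tested genes. Fgf8, the ligand of the apical ectodermal ridge, had 8 and 2 counts in anterior against 177 and 946 in central libraries. Surface ectoderm markers moved with it. The 11 listed markers summed to 10.2 and 11.1 CPM in anterior against 53.5 and 171 in central libraries. Of them 9 were called lower, beside 12.3% of all tested genes, and 0 higher. Wnt6 had no more than 3 counts in both anterior libraries. Their part in the fall of the ligands was not tested. With limma-voom 3 of the 5 calls remained, those of Fgf10, Fgf9 and Fgf18. Fgf17 was also lost without anterior replicate 1, anterior replicate 2 or central replicate 2.

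Receptors and kinases of the cascade that leads to ETS factors were called in 4 of 18 genes, or 22.2%, near the 22.9% of all tested genes. Fgfr1, the mesenchymal FGF receptor, fell 1.40-fold, from 472 and 493 CPM in the central libraries to 342 and 345 in the anterior ones (edgeR adjusted p-value 0.000696). Fgfr2, which surface ectoderm also expresses, measured 23.7 and 10.4 against 80.4 and 71.1 CPM (log2 fold change -2.14 ± 0.29, SE, with an adjusted p-value of 0.00107 from edgeR). It fell alongside the ectoderm markers above, and their part was not tested. Nras and Shc1 rose by 0.31 and 0.24 on the log2 scale, and neither was called without anterior replicate 1. Shc1 was also lost with library size alone, with upper-quartile factors, without anterior replicate 2 and without central replicate 1.

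**Figure D4:**
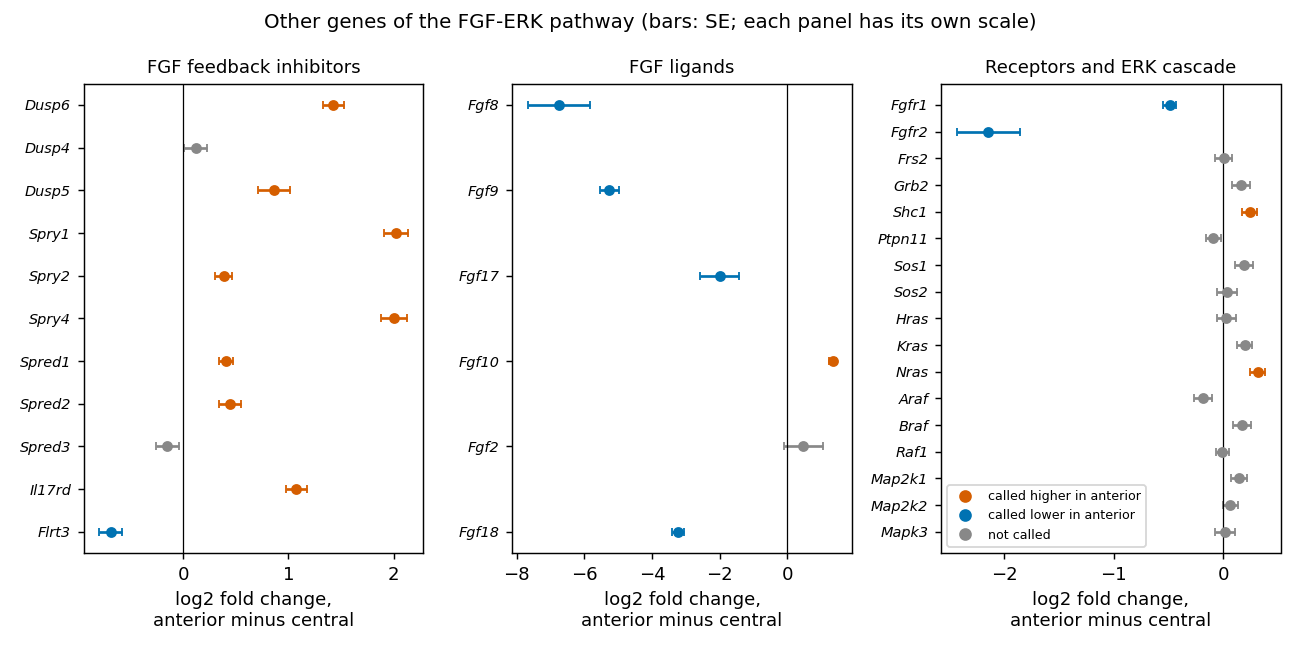
Log2 fold change (anterior minus central, bars are SE) of the tested FGF feedback inhibitors, FGF ligands, and receptors with the ERK cascade, one panel each with its own scale, 1 gene of the cascade not being drawn, orange for called higher, blue for called lower and grey for not called. Of the feedback inhibitors 8 of 11 are orange, while Fgf8 (-6.75) and Fgf9 (-5.26) lie far to the left and most of the cascade lies near 0.

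Capicua itself, the gene Cic, measured 209 and 202 CPM in anterior against 202 and 222 in central libraries, with overlap (log2 fold change -0.05 ± 0.07, SE, with an adjusted p-value of 0.666 from edgeR). Of the 6 genes listed for the Capicua complex and for the turnover of PEA3 proteins, 1 rose and 1 fell. Over all tested genes, 10.7% rose and 12.3% fell. Atxn1, a partner of Capicua, was low throughout, at 1.86 and 0.72 against 3.31 and 6.64 CPM (log2 fold change -1.94 ± 0.50, SE, with an adjusted p-value of 0.0236 from edgeR). Det1, a component of the ubiquitin ligase that degrades PEA3 proteins, rose 1.31-fold (edgeR adjusted p-value 0.0361). Det1 was not called with library size alone, upper-quartile factors or the DESeq2 Wald test, nor with any one of the 4 libraries left out. Atxn1 was not called without anterior replicate 2 or without central replicate 2.

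Partners and targets of the ternary complex factors were read against the 22.9% of all tested genes called. Of SRF and its coactivators, 0 of 3 tested genes were called by edgeR, limma-voom or the DESeq2 Wald test, and 0 had an unadjusted p-value under 0.05 in edgeR. Without central replicate 2, Srf was called higher. Of 9 immediate early genes, 1 was called, and 3 were called without a filter on low counts or with the replicate block, namely Egr1 and Fosb lower and Junb higher. Egr1 measured 39.4 and 28.9 CPM in anterior against 147 and 71.7 in central libraries, a log2 fold change of -1.68 ± 0.29 (SE, edgeR adjusted p-value 0.00399). The central replicates differed widely but stayed above both anterior values. Immediate early genes also respond to tissue dissociation. Of 6 dissociation markers, Jun fell by 1.29 and Atf3 rose by 1.55 on the log2 scale, and Fos, Hspa1a, Hspa1b and Dusp1 were not called. Their part in the Egr1 difference was not tested. The count of immediate early genes called was 4 without central replicate 1, namely Egr1 and Fosb lower and Fos and Junb higher. Without central replicate 2 Fos was called lower, so its direction depended on which central library was used.

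Among 10604 other genes with a mean of at least 5 CPM, those most like a given ETS gene were taken as the 5 with the smallest root mean square distance in log2 CPM over the 4 libraries, after centring each gene on its own mean. For Etv4 these were Unc5b, a netrin receptor, at a distance of 0.0394, then Slc1a3, Bambi, Lef1 and Mapk11, the last at 0.0677. Unc5b measured 347 and 358 CPM in anterior against 122 and 128 in central libraries. For Etv5 they were Mapk11, Kank4, Slc7a5, Dusp6 and Slit3, at 0.0459 to 0.0748. For Ets1 they were Igf2r, Tenm3, Klc4, Stoml1 and Setbp1, at 0.0149 to 0.0289. With 4 libraries in 2 groups, closeness here means a like fold between the groups and a like difference within them.

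Shh, the target of the endogenous enhancer, had 913 and 344 counts in anterior against 408 and 394 in central libraries. One anterior library was high and the other lay below both central ones. Its log2 fold change of 0.63 ± 0.32 (SE) was not called (adjusted p-value by edgeR 0.203). It was -0.11 without anterior replicate 1, and 1.11 and called without anterior replicate 2 (edgeR adjusted p-value 0.00032). Etv4 and Etv5 differed by -0.01 and 0.13 on the log2 scale between these anterior replicates (replicate 2 minus replicate 1).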

How the data were processed

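The authors deposited one table of whole-number counts per gene symbol, not normalized, for 25239 genes in 4 libraries. Per the submitters' processing notes, STAR 2.7.9a, HTSeq and DESeq2 were used with the mm10 build. The roles and options of these tools, the strand setting and the annotation are not given in the sources used here. Per the labels, each library was sequenced with paired-end reads. Even numbers made up 72.8% to 75.6% of counts between 1 and 10, the pattern seen when both mates are counted, so the totals may exceed the number of fragments, and counts divided by 2 were also tested. A floor of 3 counts was 0.0899 to 0.102 CPM. Counting error alone is covered by such floors.

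Columns were matched to samples by the domain and number in the titles, and no per-sample column was left unmatched. Genes were kept by filterByExpr (14610), scaled by TMM and tested on the whole table with edgeR 4.0.16 (R 4.3.3) by the quasi-likelihood F test, anterior against central, without a block, with 2 residual degrees of freedom. The SE is the absolute log2 fold change divided by the square root of F. The pipeline was tested on simulated data. No pair of replicates agreed within sampling noise (chi-square per degree of freedom on halved counts 14.3 for anterior and 8.15 for central). Exon lengths, positions and overlaps came from GENCODE M21 (GRCm38, the assembly of mm10), in which all 10 genes were found, and promoter windows from RefSeq. The members and gene lists were chosen with earlier results of these data known. Named genes are the 10 members, up to 5 called genes of each list by size of change, the genes most like Etv4, Etv5 and Ets1, and Shh. Other genes named in the text, among them uncalled ones such as Erg, Cic and Srf, the single feedback inhibitor that fell and the markers, were chosen outside this rule after their values were seen. Schwann and melanoblast markers summed to 15.0 and 10.3 CPM in anterior and 29.1 and 24.0 in central libraries. Their directions were mixed: of 5 tested, 2 were called lower, beside 12.3% of all tested genes, and 0 higher. Of the same 5, 2 had a positive log2 fold change. In addition, 5 of 8 macrophage, 8 of 8 erythroid and 6 of 10 limb mesenchyme markers (1 lower) were called higher, beside 10.7% of all tested genes. Alternatives were other scalings, DESeq2 1.42.0, limma-voom (limma 3.58.1), other filters, the replicate block, halved counts, a threshold of 0.01 and leaving out each library. The values of 1 gene of the ERK cascade list are not reported here.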

Additional observations from a re-analysis of the deposited data

How the results depend on the processing

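Of the 10 ETS genes, 5 were called (4 higher, 1 lower) under each scaling, test, filter, the replicate block and halved counts, and Etv4, Etv5, Ets1 and Ets2 kept their calls without each library in turn. Fits that leave 1 library in a group assume that it varies like the others. Without each library the log2 fold change of Etv6 ranged from -0.096 to 0.0339 and that of Shh from -0.112 to 1.11. The number of genes called over the whole table, 3351, ranged from 2009 to 3697 when a library was left out (2009 without anterior replicate 2) and was 1690 at a threshold of 0.01.

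Counts of called genes in the lists moved as follows. At a threshold of 0.01 there were 1 of the other ETS genes, 2 of the ERK cascade and 0 of the Capicua list. At that threshold 4 of the 10 ETS genes were called, beside 11.6% of all tested genes (22.9% at 0.05). The Capicua list had 1 call with library size alone, 1 with upper-quartile factors and 1 with the DESeq2 Wald test. Immediate early genes had 2 with the DESeq2 Wald test, 3 without a filter and 3 with the replicate block, and FGF ligands had 3 with limma-voom. Leaving out a library gave 1 to 4 for the other ETS genes, 2 to 6 for the ERK cascade, 0 to 1 for the Capicua list, 0 to 1 for SRF and its coactivators and 1 to 4 for immediate early genes. Among the feedback inhibitors, the calls of Spry2 and Spred2 were lost without anterior replicate 2. The share of all tested genes called also moved with the threshold and with the library left out, as given in the Results. These counts therefore do not tell a change particular to a list from one across all tested genes. The cause was not tested. Shares of calls higher in anterior cells were 46.5%, and 39.1% with upper-quartile factors. With the length of the longest coding transcript, an alternative chosen after seeing the data, the PEA3 share was 40.7% in anterior and 22.6% in central cells.

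Replicate numbers are shared between the groups, but the replicate differences correlated at 0.0463 across genes, which does not settle whether they share embryos, and they were treated as unpaired. With the replicate block 3586 genes were called, of which 3264 were also called without it, and 5 of the 10 ETS genes. With 2 libraries a group, calls close to the threshold are the least certain.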
